A study of Schmidtea mediterranea with 15 samples.

Results

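Transcript levels in whole planarians were compared between 96 h and 72 h after gamma irradiation, that is over the fourth day after the exposure. The animals were of CIW4, a clonal line of the freshwater flatworm Schmidtea mediterranea, starved before use, and those of both times had received 6000 rad. Each time point was represented by 3 libraries of polyA RNA, and libraries at 0 h (unirradiated worms, 0 rad), 24 h and 48 h after the same dose were used for the earlier course. The labels do not tell whether the libraries of a time come from different cultures, so p-values measure the spread between these libraries, which may be partly technical. A single clonal line was used, and the labels give no unirradiated worms at 72 h or 96 h, so time after irradiation and time in culture cannot be told apart.

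The comparison covered 19643 of the 26671 transcript models in the deposited table, 73.6%, chosen as those with at least 1 RPKM (reads per kilobase of model, scaled to library size) in at least 3 of the 6 libraries. Of these, 17744 reached 1 RPKM in all 6 libraries. At the edge of the rule lay 554 members with exactly 3 such values, at a median of 1.01 RPKM, and 677 models outside it with exactly 2, at a median of 0.893 RPKM. The 7028 models outside were not tested. The table carries model IDs without gene names, and no table of names was used here, so models cannot be assigned to cell types or pathways, the whole-worm label was not checked against marker genes, and only 2 rises and 2 falls are given by ID. These are the largest called changes on the fitted log2 scale among models that reach a mean of 5 RPKM and whose 96 h and 72 h values do not overlap.

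Planarians are known for their neoblasts, a population of dividing cells that includes the stem cells from which lost and worn-out tissue is replaced. Ionising radiation is known to remove these cells within days, after which the differentiated tissues are no longer renewed and the short-lived progeny of the neoblasts are known to run out in turn. In RNA from whole animals, fewer cells of a type and less of a transcript per cell cannot be told apart.

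The 3 libraries at 96 h held 17381483 to 30707808 reads and the 3 at 72 h 16714624 to 30682887 reads, as worked out from the RPKM steps. A single model took 10.03% to 10.6% of reads at 96 h and 10.7% to 10.9% at 72 h, a difference that was not called (log2 change -0.10, SE 0.10, limma adjusted p = 0.669). Within a group, the SD of a model's log2 level had a median of 0.0736 at 96 h and 0.0967 at 72 h. Pairs of libraries correlated across models at r = 0.994 to 0.995 within 96 h, 0.991 to 0.993 within 72 h and 0.988 to 0.994 between the groups. The SD of the log2 difference of a pair was 0.187 to 0.214 within 96 h, 0.235 to 0.271 within 72 h and 0.213 to 0.303 between the groups. The mean chi-square per model was 1.58 to 2.63, 3.58 to 5.91 and 4.23 to 12.8 in the same order. Pairs between the groups thus reached the largest values on both measures, with some overlap with pairs within 72 h.

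Over the fourth day most differences were small, and more models were called lower than higher, except with limma-voom on plain read totals. A total of 302 models were higher at 96 h than at 72 h (1.54% of the members) and 788 were lower (4.01%), by limma on log2(RPKM + 0.5) at an adjusted p below 0.05. The median change over all members was -0.01 on the log2 scale, with quartiles at -0.09 and 0.09. Among the 1090 called models the median difference was 1.19-fold, and 89.4% differed by less than 1.5-fold. At least 1.5-fold differences were found in 38 models that were higher (0.193% of the members) and 78 that were lower (0.397%). At least 2-fold differences numbered 8 higher and 4 lower, or 0.0407% and 0.0204% of the members. The lowest in level of these falls had a mean of 0.450 RPKM at 96 h and 1.39 RPKM at 72 h. Among the models called lower, 5 had passed the filter only through the 72 h libraries, of 20 such members. Of the 45 members that passed only through the 96 h libraries, 0 were called. For such models the filter itself favoured the direction of the difference. The largest called difference was 2.39-fold on the fitted scale.

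**Figure D1:**
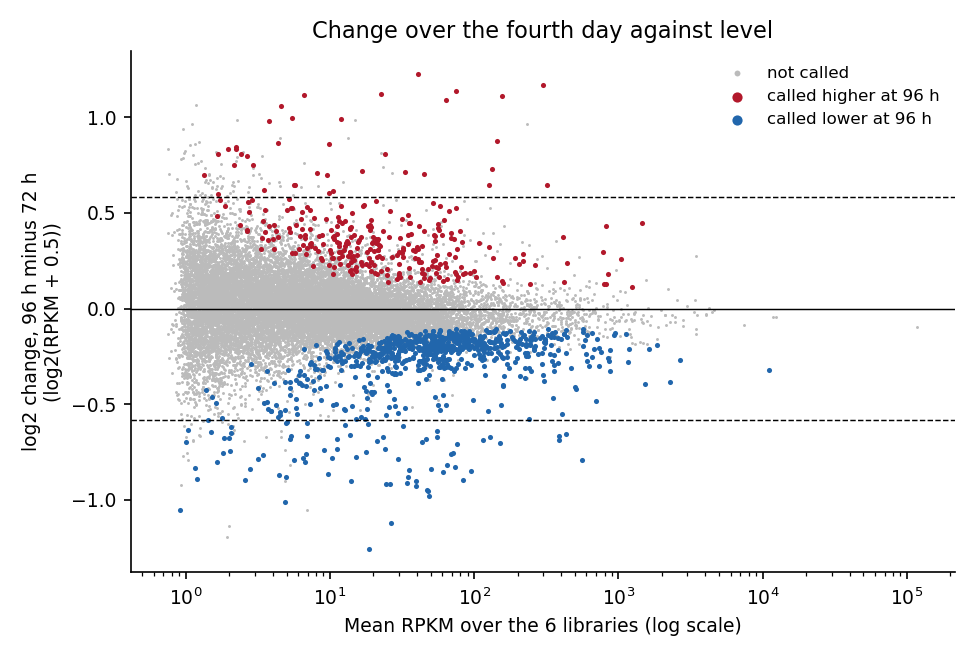
Change of each of the 19643 members between 96 h and 72 h (vertical axis, log2 scale) against its mean RPKM over the 6 libraries (horizontal axis, log scale). Red points are the 302 models called higher at 96 h, blue points the 788 called lower, grey points were not called, and dashed lines mark 1.5-fold. Most called models lie within the dashed lines, and the blue points lie mainly above 20 RPKM.

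The split between the directions depended on how the libraries were put on a common scale. As deposited, 27.7% of the calls were rises, and leaving out single libraries gave 15.01% to 33.6%. The share was 44.9% after quantile normalization (414 higher and 509 lower) and 45.07% when the authors' scaling was replaced by plain read totals (416 and 507). With limma-voom on recovered reads and plain totals it was 58.4% (1054 and 750), and with limma-voom and the authors' scaling it was 39.01% (747 and 1168). The authors' divisors were 1.001 to 1.01 times the recovered reads at 96 h and 0.974 to 0.996 times at 72 h. With plain read totals the median change of all members was 0.02 on the log2 scale, against the -0.01 of the deposited values.

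The counts also changed when single libraries were left out. A group then holds fewer libraries, and the part of this in the counts was not tested. Without 72 h replicate 2 there were 56 higher and 317 lower models. The counts rose to 435 and 924 without 72 h replicate 1, and were 325 and 643 without 72 h replicate 3. Leaving out 96 h replicate 1 gave 148 and 501, leaving out 96 h replicate 2 gave 61 and 340, and leaving out 96 h replicate 3 gave 70 and 374. The count of at least 1.5-fold falls stayed between 70 and 79 when any of the 6 libraries was left out. The count of at least 1.5-fold rises was 6 when 72 h replicate 2 was left out and 100 when 72 h replicate 1 was. With 96 h replicate 2 or 3 left out it was 9 or 7. All 3 values at 96 h lay above all 3 at 72 h in 2240 members (11.4%) and below them in 2846 (14.5%).

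The models that were lower at 96 h had mostly been raised soon after irradiation. Their earlier history was read in the 0 h, 24 h and 48 h libraries, none of which enters the comparison of 96 h with 72 h, although all groups share 1 estimate of the spread in the fit. Of the 788 models lower at 96 h, 587 (74.5%) had been called higher at 24 h than at 0 h, where 20.8% of all members were, and made up 14.3% of the 4093 models raised on that first day. Another 64 (8.12%) had been called lower, also against 20.8% of all members. Between 24 h and 48 h, the second day, 309 of them (39.2%) had been called lower, against 6.85% of all members, which is 23% of the 1346 models that fell then. At 48 h, 480 (60.9%) were called higher than at 0 h, against 22.2% of all members, and 112 (14.2%) lower, against 19.2% of all members. The 788 models had a median level of 51.1 RPKM, against 7.34 RPKM for all members, and smaller differences could be called at higher levels. The part of level in these shares was not tested. Relative to 0 h, their median log2 change was 0.31 after 24 h, 0.20 after 48 h, 0.18 after 72 h and -0.05 after 96 h. Together they took 10.1% ± 0.0247 of reads before irradiation, 12.5% ± 0.0480 after 24 h, 11.5% ± 0.439 after 48 h, 11.3% ± 0.349 after 72 h and 9.79% ± 0.0983 after 96 h (SD, n = 3). They had been chosen for the last difference, which is therefore given without a test. Per library, the median of this set against the 0 h mean was -0.064 to -0.037 at 96 h, below the -0.011 to 0.007 of the 0 h libraries. The median change of all members from 0 to 96 h was 0.05. Low values at 96 h had favoured the choice of the set.

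The models that were higher at 96 h had mostly been raised on the second day. Of the 302, 152 (50.3%) had been called lower at 24 h than at 0 h, against 20.8% of all members. These 152 are 3.71% of the 4094 models lowered then. Another 18 (5.96%) had been called higher, also against 20.8% of all members. Between 24 h and 48 h, 192 (63.6%) had been called higher, against 7.52% of all members, which is 13% of the 1477 models raised then. The 302 models had a median level of 19.2 RPKM, against 7.34 RPKM for all members, and the part of level in these shares was not tested. Relative to 0 h, the median log2 change was -0.21 after 24 h, 0.14 after 48 h, -0.02 after 72 h and 0.36 after 96 h. They took 2.89% ± 0.0190 of reads before irradiation, 2.48% ± 0.0659 after 24 h, 3.06% ± 0.254 after 48 h, 2.78% ± 0.215 after 72 h and 3.50% ± 0.0819 after 96 h (SD, n = 3). These models had been chosen for the last difference, which is therefore given without a test. The 48 h and 72 h libraries spread more widely here than those at 96 h.

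**Figure D2:**
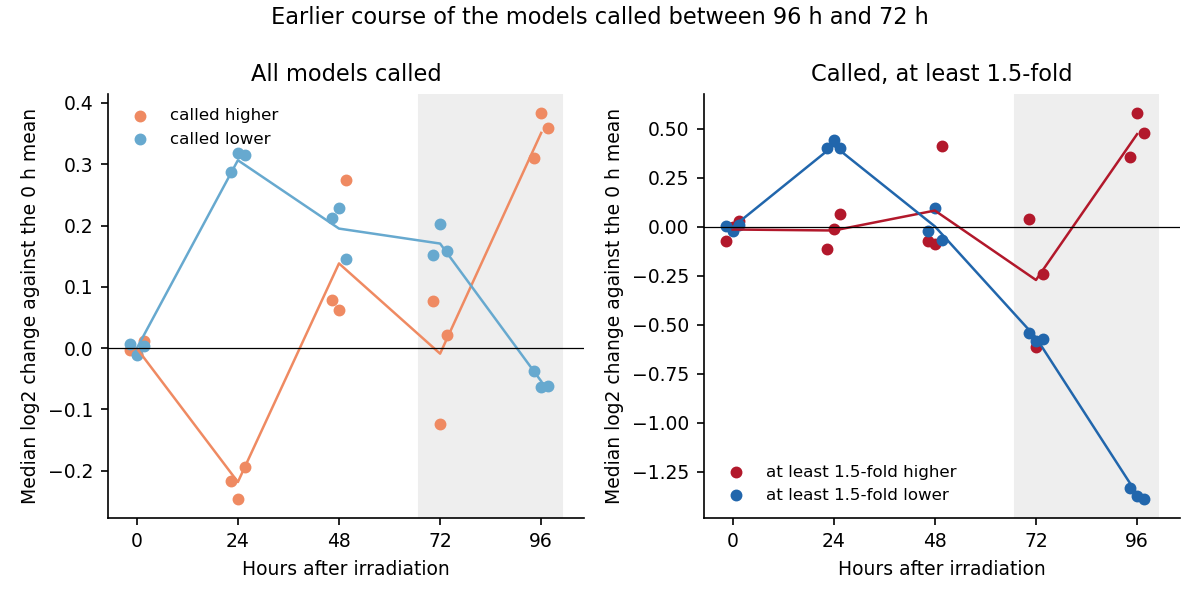
Median log2 change against the mean of the 0 h libraries, per library (points; lines join the means of 3 libraries), for models called higher (red tones) or lower (blue tones) at 96 h than at 72 h, against hours after irradiation. The left panel has all 302 and 788 called models and the right panel the 38 and 78 with at least 1.5-fold differences. Grey shading marks the 2 times whose difference chose the models. The means at 0, 24 and 48 h do not enter that difference, though those libraries share in the estimate of the spread. The blue sets peak at 24 h and the libraries of the red sets spread at 48 h and 72 h.

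The falls of at least 1.5-fold varied less between libraries at 72 h than the rises of that size. The 78 models had a median level of 16.5 RPKM and a median length of 619 bases, against 7.34 RPKM and 1184 bases for all members. Of the 78, 48 (61.5%) had been called higher over the first day, against 20.8% of all members, and 53 (67.9%) lower over the second, against 6.85%. On the log2 scale and relative to 0 h, the median change was 0.42 after 24 h, 0.02 after 48 h, -0.59 after 72 h and -1.37 after 96 h. By interval, the medians were -0.36 from 24 to 48 h, -0.59 from 48 to 72 h and -0.76 from 72 to 96 h. The last 2 of these share the 72 h libraries and the models were chosen on the last. As a share of reads the set stood at 0.557% ± 0.00300 before irradiation, 0.693% ± 0.0201 after 24 h, 0.480% ± 0.0133 after 48 h, 0.298% ± 0.00368 after 72 h and 0.180% ± 0.00247 after 96 h (SD, n = 3). Within groups the median SD of their log2 level was 0.0935 at 96 h and 0.0745 at 72 h, beside 0.0736 and 0.0967 for all members.

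The rises of at least 1.5-fold rested on more variable values. The 38 models had a median within-group SD of 0.164 at 96 h and 0.361 at 72 h on the log2 scale, beside 0.0736 and 0.0967 for all members. Replicate 2 was the lowest of the 3 libraries at 72 h in 34 of the 38, and replicate 1 the highest in 29. At 48 h replicate 3 was the highest in 32 of the 38, at a median SD of 0.287. The set took 0.177% ± 0.00624 of reads before irradiation, 0.132% ± 0.00474 after 24 h, 0.176% ± 0.0547 after 48 h, 0.136% ± 0.0344 after 72 h and 0.248% ± 0.0150 after 96 h (SD, n = 3). Its models had been chosen for the difference between 96 h and 72 h. Of the 38, 8 (21.1%) had been called lower at 24 h than at 0 h, close to the 20.8% of all members, and 5 (13.2%) higher at 48 h than at 24 h, against 7.52%. The part of single libraries in these rises was not tested beyond the counts given without each library.

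SMED30002834, a model of 484 bases, had the largest fall on the fitted log2 scale. It stood at 11.6, 9.95 and 11.1 RPKM at 96 h, against 27.5, 27.7 and 24.7 RPKM at 72 h. The choice of the model fixed that the 96 h libraries lie below those at 72 h. They also lay below every library of the earlier times, the lowest of which was 23.7 RPKM. The mean was 10.9 ± 0.830 RPKM after 96 h, against 26.6 ± 1.65 RPKM after 72 h (SD, n = 3), or 2.45-fold lower, from 94 to 172 reads and 218 to 363 reads per library. The log2 change was -1.25 (SE 0.11, limma adjusted p = 4.49e-06). The level had been 35.9 ± 0.979 RPKM before irradiation, 37.4 ± 3.75 after 24 h and 29.8 ± 6.08 after 48 h, and neither the change from 0 to 24 h nor that from 24 to 48 h was called (log2 0.05 and -0.34, limma adjusted p = 0.737 and 0.0551).

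SMED30004108, of 358 bases, followed a like course at 17.5, 14.2 and 17.9 RPKM at 96 h, against 39.2, 35.7 and 34.3 RPKM at 72 h, again without overlap by choice. The mean was 16.5 ± 2.03 RPKM after 96 h, against 36.4 ± 2.52 RPKM after 72 h (SD, n = 3), 2.20-fold lower, or -1.12 on the log2 scale (SE 0.11, limma adjusted p = 2.00e-05). Each 96 h library held 112 to 192 of its reads, and each 72 h library 208 to 372. It had stood at 44.4 ± 4.82 RPKM before irradiation, 43.3 ± 2.65 after 24 h and 36.5 ± 6.61 after 48 h. Neither its change from 0 to 24 h nor that from 24 to 48 h was called (log2 -0.03 and -0.26, limma adjusted p = 0.852 and 0.154). Whether either of these falling models shares reads with another model was not tested.

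SMED30034979, of 486 bases, was higher at 96 h in every library, at 401, 424 and 425 RPKM, against 212, 149 and 202 RPKM at 72 h. The mean was 417 ± 13.6 RPKM after 96 h, against 187 ± 34.0 RPKM after 72 h (SD, n = 3), 2.22-fold higher, or 1.17 on the log2 scale (SE 0.19, limma adjusted p = 0.00259). The call held in each of the fits tried, with limma adjusted p-values of 3.77e-05 to 0.0190. At 48 h the 3 libraries stood at 229, 206 and 427 RPKM, so that replicate 3 at 48 h was already at the level of 96 h while the other two were not. At 24 h the level was 275 ± 5.27 RPKM and at 0 h 266 ± 19.1 RPKM. In the 15 libraries the model thus varied little at the first 2 times and widely at 48 h.

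SMED30029471, of 1586 bases, had the largest rise on the fitted log2 scale, and its call was lost in several fits. It stood at 48.6, 63.9 and 54.4 RPKM at 96 h, against 43.2, 15.4 and 19.1 RPKM at 72 h. The groups do not overlap, as the choice of this model required, and replicate 1 at 72 h came close to replicate 1 at 96 h. The mean was 55.6 ± 7.76 RPKM after 96 h, against 25.9 ± 15.1 RPKM after 72 h (SD, n = 3), 2.15-fold higher, or 1.22 on the log2 scale (SE 0.30, limma adjusted p = 0.0286). The model no longer passed when 72 h replicate 2 was left out (limma adjusted p = 0.159), nor without 72 h replicate 3 (0.0859) or any of the 96 h replicates 1, 2 and 3 (0.0537, 0.119 and 0.0857). Nor did it pass in the fit to only the 6 libraries (limma adjusted p = 0.0689). Replicate 3 at 48 h, at 63.9 RPKM, again stood above the other two at 31.5 and 30.01 RPKM.

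The 8 models with rises of at least 2-fold shared this pattern of libraries. Replicate 1 was the highest and replicate 2 the lowest of the 72 h libraries in all 8 of them, and replicate 3 was the highest at 48 h in 7. Their median SD of the log2 level was 0.719 at 72 h and 0.544 at 48 h, against 0.0967 and 0.0858 for all members. This was noticed after the values were seen, and whether the 8 models share reads was not tested.

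**Figure D3:**
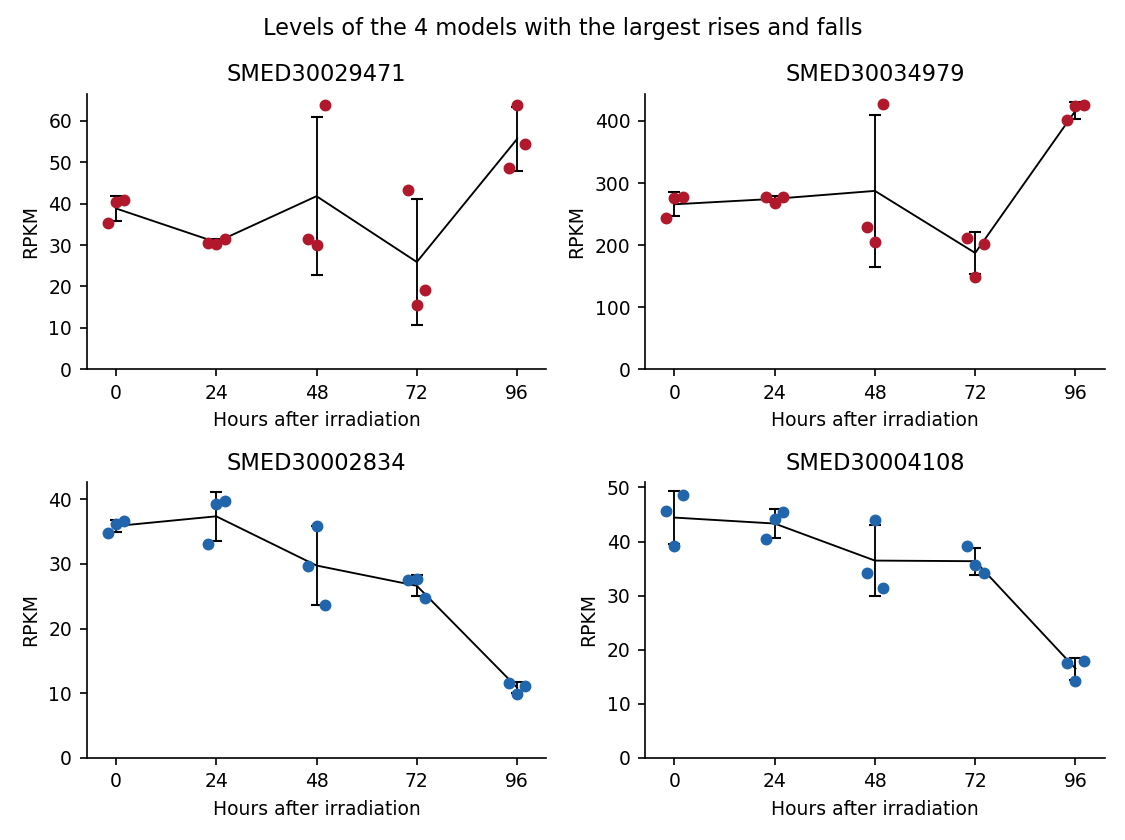
RPKM of SMED30029471 and SMED30034979 (top, largest rises) and of SMED30002834 and SMED30004108 (bottom, largest falls) in each of the 15 libraries (points) against hours after irradiation, with the mean and SD of 3 libraries in black. For the 2 lower models all 96 h libraries lie below all others. For the 2 upper models the 48 h libraries, and for SMED30029471 also the 72 h libraries, spread widely.

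The calls of the earlier intervals were used to sort the members, and the change from 72 h to 96 h was then read. The means at 72 h and 96 h do not enter those earlier contrasts. All 15 libraries share 1 estimate of the spread, however, so a model of small spread is called more readily in the sorting and over the fourth day alike. The part of this in the shares called was not tested. Models called higher over the first day and then lower over the second numbered 580. Of these, 218 (37.6%) were lower at 96 h than at 72 h, against 4.01% of all members, and 1 (0.172%) was higher. Their median change over the fourth day was -0.13 on the log2 scale, with quartiles at -0.21 and -0.07, and 524 of the 580 (90.3%) had a change below 0, against 51.5% of all members. They took 4.49% ± 0.0216 of reads after 96 h, against 4.93% ± 0.0553 after 72 h (SD, n = 3), and the groups did not overlap (exact permutation test, two-sided p = 0.1, the smallest that 3 against 3 libraries can give).

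The mirror class of 779 models, called lower at 24 h and then higher at 48 h, went the other way. Of these, 125 (16.0%) were higher at 96 h than at 72 h, against 1.54% of all members, and 8 (1.03%) were lower. Their median change over the fourth day was 0.16, with quartiles at 0.06 and 0.27. They took 8.15% ± 0.0863 of reads after 96 h, against 7.11% ± 0.501 after 72 h (SD, n = 3), again without overlap (exact permutation test, two-sided p = 0.1, the smallest possible). Its count rested on single libraries, at 26 of 779 (3.34%) without 72 h replicate 2, where 0.285% of all members were called higher. With 96 h replicates 1, 2 and 3 left out in turn it had 62 (7.96%), 28 (3.59%) and 40 (5.13%), where 0.753%, 0.311% and 0.356% of all members were. With limma-voom on plain read totals it had 346 (44.4%), beside 5.37% of all members. The class of 580 had 123 models (21.2%) called lower without 72 h replicate 2, beside 1.61% of all members, 130 (22.4%) without 96 h replicate 2, beside 1.73%, and 140 (24.1%) without 96 h replicate 3, beside 1.9%.

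No other class had a share called lower as high as that of the 580, or a share called higher as high as that of the 779. Over all members these shares were 4.01% lower and 1.54% higher. Of 3415 models called higher at 24 h with no call between 24 and 48 h, 363 (10.6%) were lower at 96 h. Of 2917 models called lower at 24 h with no call from 24 to 48 h, 27 (0.926%) were higher over the fourth day and 17 (0.583%) lower. Both shares lay below those of all members. Of 398 models called lower in both of these intervals, 39 (9.80%) were lower again at 96 h. Of 600 models first called higher between 24 and 48 h, 66 (11%) were higher at 96 h. Of 368 models first called lower between 24 and 48 h, 52 (14.1%) were lower at 96 h. The 10488 models with no call in either interval had 66 higher (0.629%) and 82 lower (0.782%), also below the shares of all members, at a median level of 3.73 RPKM.

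**Figure D4:**
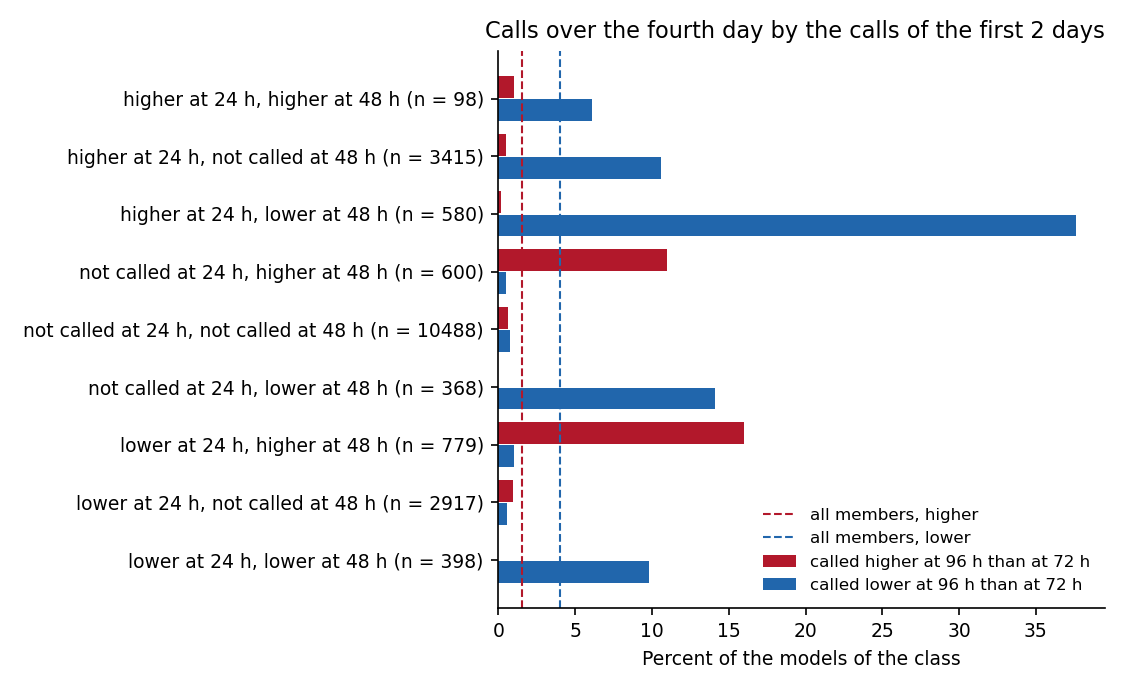
Percent of models called higher (red) or lower (blue) at 96 h than at 72 h, in 9 classes set by the calls of 24 h against 0 h and of 48 h against 24 h. Dashed lines are the percentages over all 19643 members, 1.54% and 4.01%. The class higher at 24 h and lower at 48 h reaches 37.6% called lower, and the class lower at 24 h and higher at 48 h reaches 16.0% called higher.

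Across all 19643 members the log2 change over the fourth day correlated with that from 24 to 48 h at r = 0.31 (Spearman 0.32) and with that from 0 to 24 h at r = -0.22 (Spearman -0.26). These are descriptions across models, which are not independent replicates, and the 2 intervals compared in each have no library in common. With the change from 0 to 48 h the correlation was -0.03 (Spearman -0.07).

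The size of difference that could be called depended on the level of a model. Models of 100 RPKM or more had 30 higher (3.03%) and 207 lower (20.9%) among 990. Models from 20 to under 100 RPKM had 115 (2.92%) and 405 (10.3%) among 3935. From 5 to under 20 RPKM there were 122 higher (1.8%) and 135 lower (1.99%) among 6776, and under 5 RPKM there were 35 (0.441%) and 41 (0.516%) among 7942. A typical model of the lowest class had 48.7 reads per library at 96 h and 40.3 at 72 h, and the smallest difference called there was 1.22-fold. In the highest class the typical model had 5935 and 5332 reads and differences down to 1.08-fold were called. The median change was 0.03 in the lowest class and -0.06 in the highest on the log2 scale. After quantile normalization the highest class had 75 higher (7.58%) and 126 lower (12.7%), and with plain read totals it had 58 (5.86%) and 150 (15.2%).

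Within classes of level, the 580 models raised at 24 h and lowered at 48 h were called lower at 96 h in 45 of 71 (63.4%) from 100 RPKM, 132 of 327 (40.4%) from 20 to under 100 RPKM, 34 of 153 (22.2%) from 5 to under 20 RPKM and 7 of 29 (24.1%) under 5 RPKM, beside 20.9%, 10.3%, 1.99% and 0.516% of all members of those classes. The 779 models of the mirror class were called higher in 13 of 68 (19.1%), 61 of 265 (23.0%) and 51 of 346 (14.7%) in the first 3 of these classes, beside 3.03%, 2.92% and 1.8% of their members. Under 5 RPKM, 0 of 100 were called higher, beside 0.441% of the members there, while 36 of the 100 were higher at an unadjusted limma p below 0.05 and limma-voom on plain read totals called 25.

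Length was the one other property of a model that the values gave. Models higher at 96 h had a median length of 1843 bases and models lower at 96 h 1162 bases, against 1184 bases for all members. Of 4577 models of 2000 bases or more, 135 were higher (2.95%) and 137 lower (2.99%). Of 5217 models from 500 to under 1000 bases, 48 were higher (0.920%) and 245 lower (4.70%). The median change was 0.02 on the log2 scale in the longest class and -0.02 in the class from 500 to under 1000 bases. In all 9 pairings of a 96 h with a 72 h library, the longest class had a median between 0.01 and 0.04 and the class from 500 to under 1000 bases between -0.04 and -0.02. After quantile normalization the longest class had 183 higher (4%) and 75 lower (1.64%), and the class from 500 to under 1000 bases 66 (1.27%) and 168 (3.22%). With plain read totals the medians of these classes were 0.05 and 0.01, so that of the shorter class changed its sign with the scaling. The part of length in the calls was not tested.

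**Figure D5:**
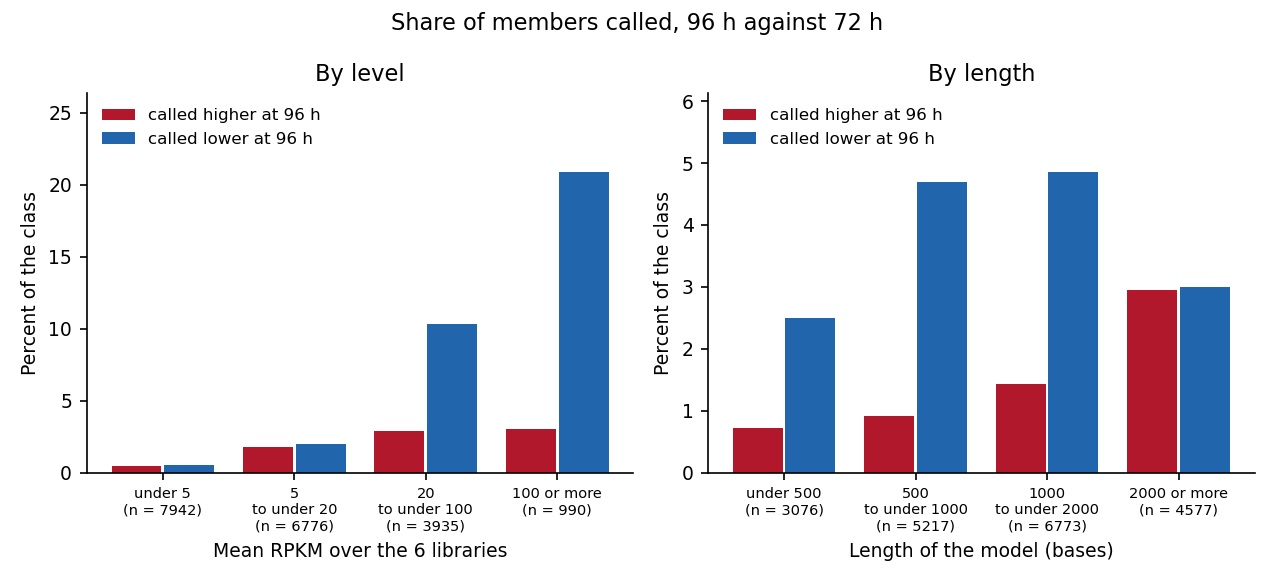
Percent of members called higher (red) or lower (blue) at 96 h than at 72 h, by mean RPKM over the 6 libraries (left) and by length of the model in bases (right). The share called lower is 20.9% from 100 RPKM and 0.516% under 5 RPKM, and the share called higher is 2.95% from 2000 bases and 0.715% under 500 bases.

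Set beside the days before it, the fourth day had 1090 calls (5.55% of the members), the third day, from 48 to 72 h, had 382 (1.94%), and the second day, from 24 to 48 h, had 2823 (14.4%). On the third day 88 models were higher (0.448%) and 294 lower (1.5%), and on the second day 1477 were higher (7.52%) and 1346 lower (6.85%). Differences of at least 1.5-fold numbered 2 higher (0.0102%) and 65 lower (0.331%) on the third day and 213 (1.08%) and 55 (0.28%) on the second, beside the 38 and 78 of the fourth day. All these counts are over the 19643 members, set by the 72 h and 96 h libraries. Models that reached 1 RPKM only at earlier times are left out, which works against falls of the earlier days. By their own libraries the third and second days would have 19625 and 19647 members. Counts of calls do not test a difference between days, so the change over the fourth day was set against that of each earlier day within the fit.

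The change over the fourth day differed from that over the third in 82 models (0.417% of the members; limma, adjusted p below 0.05), 36 of them with the higher change on the fourth day (0.183%) and 46 with the lower (0.234%). Both intervals use the 72 h libraries, and leaving out their replicates 1, 2 and 3 in turn gave 328, 11 and 131 models. Leaving out 96 h replicates 1, 2 and 3 gave 42, 34 and 31. From the change over the second day, with which it shares no library, it differed in 377 models (1.92%), 122 with the higher change on the fourth day (0.621%) and 255 with the lower (1.3%). That count fell to 217 when 72 h replicate 3 was left out, and to 242, 201 and 189 for the 96 h replicates 1, 2 and 3.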

How the data were processed

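The authors deposited RPKM values for 26671 transcript models in 15 libraries. CASAVA 1.8.2, Bowtie and edgeR are listed in the submitters' processing notes without a role. The sources used here do not give the transcript set, the mapping settings, the strand or what was done with reads that several models share. Divisors, lengths and whole reads were worked out from the RPKM steps, using 1136 models under 0.5 RPKM in every library. All 26671 models came out whole within 0.001 reads, with lengths from 60 to 23779 bases. Values were transformed as log2(RPKM + 0.5), which understates changes of models at low levels. Using limma 3.58.1 (R 4.3.3), all 15 libraries entered 1 model with a term for each time and variances moderated along a trend with level. Contrasts were two-sided, with Benjamini-Hochberg adjustment over the 19643 members. Models named were the 2 largest called rises and falls in log2 change without overlap between the groups and with a mean of at least 5 RPKM in the higher one. The members, sets and classes were chosen with earlier results of these data known. The lists of marker and pathway genes could not be used without gene names. In simulated reads for 96 h against 72 h with 19661 models tested, limma recovered 8 of 49 models at a true 1.2-fold change, 31 of 49 at 1.5-fold, 38 of 49 at 2-fold and 45 of 47 at 4-fold, and 7 unchanged models made up 5.43% of what it called. The simulation drew each model on its own, without deviations of a library that many models share. Its shares therefore need not hold for the real calls. Other pseudocounts, filters, scalings, limma-voom, a replicate block and leaving out each library were tried. Pairs of libraries of a group differed beyond counting noise, so no pair was merged as repeats of 1 library. Python 3.11.15 with numpy 2.4.6, pandas 2.3.3, scipy 1.17.1 and matplotlib 3.10.9 served for tables and figures.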

Additional observations from a re-analysis of the deposited data

Results flagged for a closer look

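For 3 of the 4 models named, the change between 96 h and 72 h differed from the change over an earlier day in a direct limma contrast of the 2 intervals. The models were chosen for a large change over the fourth day, which enters both contrasts. The choice therefore favoured such differences, and the p-values do not allow for it. The contrast with the third day also uses the 72 h libraries in both intervals. For SMED30002834 the change over the fourth day minus that over the third was -1.11 on the log2 scale (SE 0.19, limma adjusted p = 0.0208), and minus that over the second it was -0.92 (SE 0.16, limma adjusted p = 0.00734). For SMED30004108 these differences were -1.13 (SE 0.20, limma adjusted p = 0.0213) and -0.86 (SE 0.16, limma adjusted p = 0.0118). Without 72 h replicate 2 neither differed from the third day (limma adjusted p = 0.154 and 0.130), nor did SMED30002834 without 96 h replicate 2 or 3 (0.0585 and 0.0518). For SMED30034979 the differences were 1.72 (SE 0.34, limma adjusted p = 0.0435) and 1.18 (SE 0.27, limma adjusted p = 0.0396). Both were lost whenever 72 h replicate 2 or 3 or any 96 h replicate was left out (limma adjusted p = 0.0525 to 0.330 and 0.0685 to 0.0960) and with no filter on low values (limma adjusted p = 0.0560 and 0.0535). Groups of 3 libraries are too small for a check of single outlying values.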

How the results depend on the processing

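Over the settings other than leaving out libraries, the 78 falls of at least 1.5-fold ranged from 58 to 99. In the fit to only the 6 libraries, 195 models were higher and 448 lower, with 22 rises of at least 1.5-fold. Quantile normalization gave 509 lower models and 44.9% rises, and plain read totals gave 507 and 45.07%. With limma-voom on plain totals there were 1054 higher models, 58.4% rises and 102 rises of at least 1.5-fold, and the change differed from the third day in 544 models and from the second in 784. With limma-voom and the authors' scaling these values were 747, 39.01%, 91, 615 and 831. Models with a mean of at least 5 RPKM gave 144 that differed from the third day. Plain read totals without voom and limma-voom with the authors' scaling were chosen after seeing the data. Leaving out 1 library gave 56 to 435 higher and 317 to 924 lower models, 15.01% to 33.6% rises, 6 to 100 rises of at least 1.5-fold, 11 to 328 models that differed from the third day and 189 to 427 from the second. Rises of at least 2-fold then numbered 1 to 23 and falls 2 to 7. The read share of the 580 models raised at 24 h and lowered at 48 h, 96 h minus 72 h, was -0.447 percentage points and -0.528 without the most abundant model. No called change of a model named was reversed. The cause of these differences between settings was not tested. Same-numbered libraries at 96 h and 72 h did not deviate together (correlations of -0.0694, -0.0255 and -0.0363), so no pairing by number was seen. These values do not tell whether same-numbered libraries were handled together. A replicate block gave 317 higher and 759 lower models and changed none of the calls of the 4 models named. Under 5 RPKM, where a typical model had 48.7 reads per library at 96 h and 40.3 at 72 h, differences below 1.22-fold were not called, and the part of depth in this was not tested.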
